A study of Mus musculus with 24 samples.

Results

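Chemokines are small secreted or membrane-bound proteins that steer the movement of leukocytes and stromal cells, and they act through a family of G protein-coupled receptors. The members described here are the rows of the gene count table whose symbol is Ccl, Cxcl, Ccr or Cxcr followed by a number and at most 1 letter, together with Cx3cl1, Cx3cr1, Xcl1 and Xcr1. They came to 57 of 24421 genes, of which 39 are named as ligands and 18 as receptors. RNA was sequenced in bulk from sciatic nerves of Nf1 flox/flox PostnCre+ mice, which the labels place at the plexiform neurofibroma stage. Plexiform neurofibroma is a nerve sheath tumour that arises in Schwann cells that have lost Nf1, a brake on RAS. Postn drives the Cre recombinase, so that Nf1 is lost in the cells in which that promoter has been active. For 1 week the mice were given abemaciclib, a CDK4/6 inhibitor, with LY3214996, an ERK1/2 inhibitor (the combination group), LY3214996 alone (ERKi), abemaciclib alone (CDKi), or vehicle. Each group had 6 libraries. All 4 groups carry the Nf1 deletion, and the labels give no age and do not say whether each library is a separate mouse. The p-values set differences between groups against the spread between these libraries, which are taken as independent.

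In nerve, chemokines are best known for calling in macrophages and other blood cells after injury. Ccl2 and Ccl7 draw monocytes through Ccr2, fractalkine (Cx3cl1) binds Cx3cr1 on resident macrophages, and Cxcl12 binds Cxcr4 on progenitors, leukocytes and endothelial cells. Neurofibromas hold many macrophages and mast cells beside Schwann cells and fibroblasts.

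Total counts lay between 12096063 and 18518610 in combination libraries, between 14525128 and 24676846 in ERKi libraries, between 15118837 and 19757307 in CDKi libraries and between 5391543 and 42321550 in vehicle libraries. Some libraries stood apart. ERKi replicate 3 and CDKi replicates 1 and 3 held liver transcripts, and combination replicates 3 and 5, CDKi replicates 3 and 5 and vehicle replicates 1 and 5 were poor in the transcripts of sensory neurons. CDKi replicate 5 held skeletal muscle transcripts, at a sum of 1233 CPM over 10 markers, against at most 16.97 CPM in vehicle libraries. Sums above this vehicle maximum were also found in combination replicates 1, 3 and 4, at 96.6, 31.9 and 73.6 CPM. ERKi replicates 4 and 6 had 84.1 and 88.9 CPM, and CDKi replicate 2 had 31.5 CPM. The other drug-treated libraries lay under that maximum. The part of muscle content in the results on the members was not tested. The 13 adipocyte markers had lowest, median and highest sums of 83.8, 217 and 319 CPM in the combination group, 51.9, 374 and 401 CPM in the ERKi group, 246, 395 and 688 CPM in the CDKi group and 30.8, 66.5 and 246 CPM in the vehicle group. Against vehicle 12 of these 13 markers were above 0 in log2 fold change in the combination, 12 with ERKi and 13 with CDKi, with medians of 0.95, 1.10 and 1.87. None was called by edgeR, with 5, 7 and 11 higher at an unadjusted p under 0.05, beside 11.5%, 6.34% and 3.12% of all genes, and the part of adipocyte content in the results on the members was not tested. Schwann cell markers were high in every group, with lowest, median and highest sums over 8 markers of 6939.8, 18161 and 23145 CPM in the combination group, 4925, 17591 and 22793 CPM in the ERKi group, 12347, 18023 and 28585 CPM in the CDKi group and 18344, 19745 and 27594 CPM in the vehicle group. CPM are read counts scaled to library size, after adjusting that size by the trimmed mean of M values (TMM).

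Of the 57 members, 25 had enough counts to be tested, 19 ligands and 6 receptors. The ligand level was dominated by 1 gene. Per kilobase of exon, Ccl11 (eotaxin, a ligand of Ccr3 that attracts eosinophils) averaged 127 ± 48 CPM in the combination group, 123 ± 42.9 in the ERKi group, 162 ± 65.6 in the CDKi group and 191 ± 50.4 in the vehicle group (SD, n = 6 each). It made up 66.2% of the summed ligand level per kilobase in the combination group, 63.4% in the ERKi group, 64.9% in the CDKi group and 67.7% in the vehicle group. Cxcl14, a chemokine of epithelia and stroma, came next, at 13.6 ± 6.36 CPM per kilobase in the combination group and 22.7 ± 8.77 in the vehicle group. The vehicle libraries of Ccl11 and Cxcl14 did not overlap. The other 8 of 9 pairs of neighbours among the 10 highest ligands in vehicle nerves overlapped, Cxcl14 and Ccl2 among them, so that these neighbours have no firm order. After Cxcl14 the vehicle means ran Ccl2, Ccl7, Cxcl13, Ccl9, Cxcl12, Cx3cl1, Cxcl16 and Ccl6. Ligands farther apart could separate. The lowest vehicle library of Ccl2, at 5.45 CPM per kilobase, was above the highest of Cx3cl1, at 5.22. Among the receptors, Cx3cr1, the fractalkine receptor of resident macrophages, was highest, at 9.16 ± 6.8 CPM per kilobase in the combination group, 11.9 ± 2.17 in the ERKi group, 9.85 ± 4.15 in the CDKi group and 13.6 ± 5.49 in the vehicle group. It made up between 45.2% and 49.5% of the summed receptor level. Ccr2, the monocyte receptor for Ccl2 and Ccl7, followed at 3.59 ± 2.35 CPM per kilobase in the combination group and 6.21 ± 1.77 in the vehicle group. Cxcr4, Ccr1 and Cxcr6 were lower in mean level over all libraries, and in vehicle nerves the libraries of Cx3cr1 and Ccr2, of Ccr2 and Cxcr4, and of Cxcr4 and Ccr1 overlapped.

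**Figure D1:**
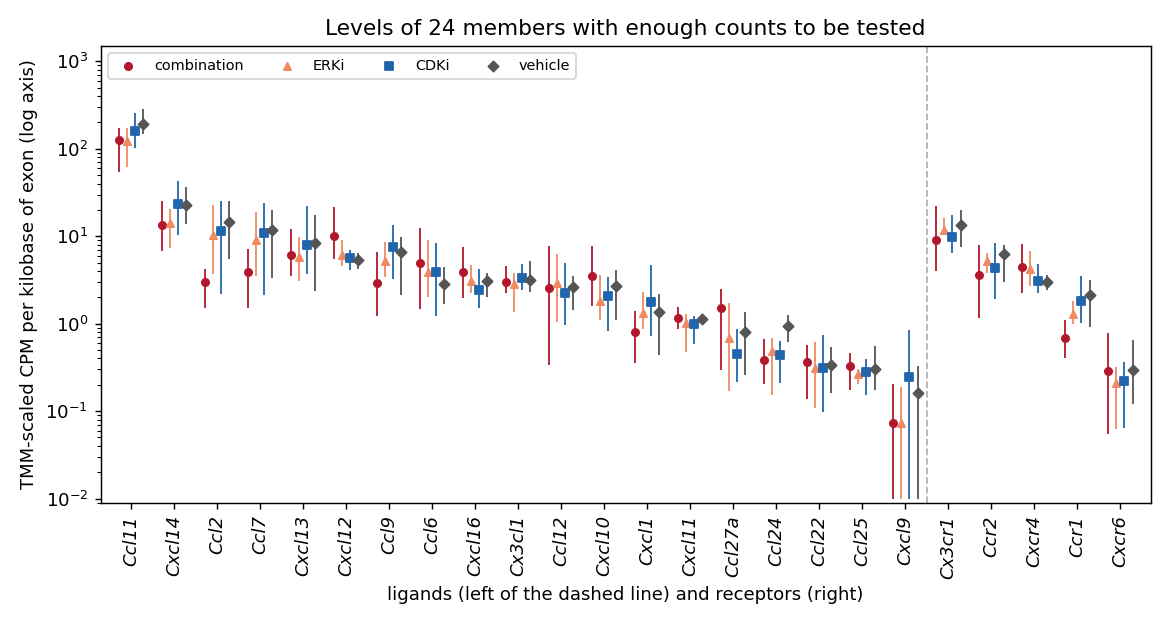
Tested members, 24 of the 25, are on the x axis, ligands left of the dashed line and receptors right of it, and the y axis gives CPM per kilobase of exon on a log scale. Symbols are group means of 6 libraries and lines run from the lowest to the highest library (values under 0.01 are drawn at 0.01); Ccl11 stands above every other ligand and Cx3cr1 above the other receptors in mean level.

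Ccr1 fell in the combination group, and no other member passed the threshold there. Ccr1 is a receptor of macrophages and other myeloid cells that binds several CC chemokines, in the mouse Ccl6 and Ccl9 among them. With edgeR's quasi-likelihood test and Benjamini-Hochberg adjustment over all 15385 genes tested, 1 of the 25 members was called in the combination against vehicle at an adjusted p under 0.05, against 19 of all genes (0.123%). At an unadjusted p under 0.05 there were 8 of 25 members, 2 higher (Cxcl12 and Cxcr4) and 6 lower (Ccr1, Ccl2, Ccl24, Ccl9, Ccl7 and Cxcl14), beside 11.5% of all genes. By role these were 6 of 19 ligands and 2 of 6 receptors. The median log2 fold change over the 25 members was -0.08, with 10 above 0 and 15 below, and that of all genes was 0.04.

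Ccr1 had lowest, median and highest levels of 1.14, 1.86 and 3.15 CPM in combination libraries, 2.78, 3.27 and 5.19 CPM in ERKi libraries, 2.9, 3.88 and 9.95 CPM in CDKi libraries and 2.59, 6.35 and 8.97 CPM in vehicle libraries. The combination libraries were low as a group, all 6 lay below the vehicle mean, and only the upper end of the combination range met the lowest vehicle library. The log2 fold change of Ccr1 in the combination against vehicle was -1.62 ± 0.33 (SE) with an adjusted p of 0.0494 by edgeR. This call sits at the threshold. It was lost when any 1 of combination replicates 1, 2, 4, 5 and 6, ERKi replicates 1, 2, 4, 5 and 6, CDKi replicates 1, 4, 5 and 6 or vehicle replicates 1, 2, 3 and 5 was left out. Leaving out 1 combination or vehicle library gave log2 fold changes from -1.81 to -1.48. Without the 3 libraries holding liver transcripts the adjusted p of Ccr1 was 0.0156 by edgeR, and without the 6 libraries poor in neuronal transcripts the log2 fold change was -1.49 with an adjusted p of 0.405. In bulk nerve, fewer cells of a type and less RNA per cell cannot be told apart. The 13 macrophage markers, all of which passed the filter on low counts, had lowest, median and highest sums of 336, 525 and 824 CPM in combination libraries and 532, 622 and 700.4 CPM in vehicle libraries. Of these 13 markers, 11 were below 0 in log2 fold change with a median of -0.18, and 0 were called by edgeR, with 2 lower at an unadjusted p under 0.05 beside 11.5% of all genes. The single drugs gave similar values, with 12 of the 13 markers below 0 against vehicle with ERKi and 11 with CDKi. The median log2 fold changes were -0.27 and -0.14, and the median sums 457 CPM in ERKi libraries and 539 CPM in CDKi libraries. With the mean level of the macrophage list as a covariate, the log2 fold change of Ccr1 was -1.18 with an adjusted p of 0.0424 by edgeR. With the nerve fibroblast list as a covariate it was -1.36 with an adjusted p of 0.414.

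Cx3cr1 and Ccr2, also receptors of myeloid cells, did not pass the test. Cx3cr1 had 18.3, 32.8 and 101 CPM in combination libraries, against 34, 57.8 and 89.7 CPM in vehicle libraries, and its log2 fold change was -0.57 ± 0.35 (adjusted p = 0.564 by edgeR). Ccr2 had 7.93, 21.6 and 54.1 CPM in combination libraries, against 20.2, 45.2 and 54.1 CPM in vehicle libraries, and its log2 fold change was -0.79 ± 0.40 (adjusted p = 0.461 by edgeR). For both genes 5 of 6 combination libraries lay below the vehicle mean and the ranges overlapped widely. Cxcr6, the receptor of T and NK cells for Cxcl16, was the lowest of the tested receptors, with 0.106, 0.246 and 1.52 CPM in combination libraries, against 0.232, 0.455 and 1.25 CPM in vehicle libraries.

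Among the ligands, the monocyte attractants Ccl2 and Ccl7 had the lowest fold changes in the combination. Ccl2 had 1.74, 3.46 and 4.81 CPM in combination libraries, 4.26, 10.1 and 26.2 CPM in ERKi libraries, 2.47, 11 and 28.5 CPM in CDKi libraries and 6.21, 15.5 and 28.5 CPM in vehicle libraries. Every combination library was below every vehicle library, while both single-drug groups overlapped vehicle. Ccl2 was the 1 tested member whose groups did not overlap in this comparison, and 0.858% of all genes had such a gap in either direction. Its log2 fold change in the combination against vehicle was -2.30 ± 0.57 with an adjusted p of 0.0988 by edgeR, which misses the threshold, and DESeq2 gave an adjusted p of 0.00445. By edgeR the adjusted p of Ccl2 was 0.0456 without the 3 libraries holding liver transcripts, and without the 6 libraries poor in neuronal transcripts the log2 fold change was -1.86 with an adjusted p of 0.654. Ccl7 had 1.2, 2.6 and 5.78 CPM in combination libraries, 2.82, 5.97 and 15.2 CPM in ERKi libraries, 1.71, 6.31 and 19.3 CPM in CDKi libraries and 2.69, 9.03 and 16.1 CPM in vehicle libraries. All 6 combination libraries of Ccl7 were below the vehicle mean but the ranges overlapped, and the log2 fold change was -1.60 ± 0.58 with an adjusted p of 0.249 by edgeR. The 8 markers of nerve fibroblasts, a cell type that makes chemokines, also differed in level, with lowest, median and highest sums of 4780.1, 7654 and 12606 CPM in combination libraries, 3712, 8893 and 11782 CPM in ERKi libraries, 8380.4, 11105 and 18639.6 CPM in CDKi libraries and 10256, 13624 and 17316 CPM in vehicle libraries. In the combination against vehicle 7 of these 8 markers were below 0 in log2 fold change with a median of -0.63, and 0 were called by edgeR, with 1 higher and 4 lower at an unadjusted p under 0.05 beside 11.5% of all genes. With the mean level of this list as a covariate the log2 fold change of Ccl2 was -1.16 with an adjusted p of 0.655 by edgeR.

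**Figure D2:**
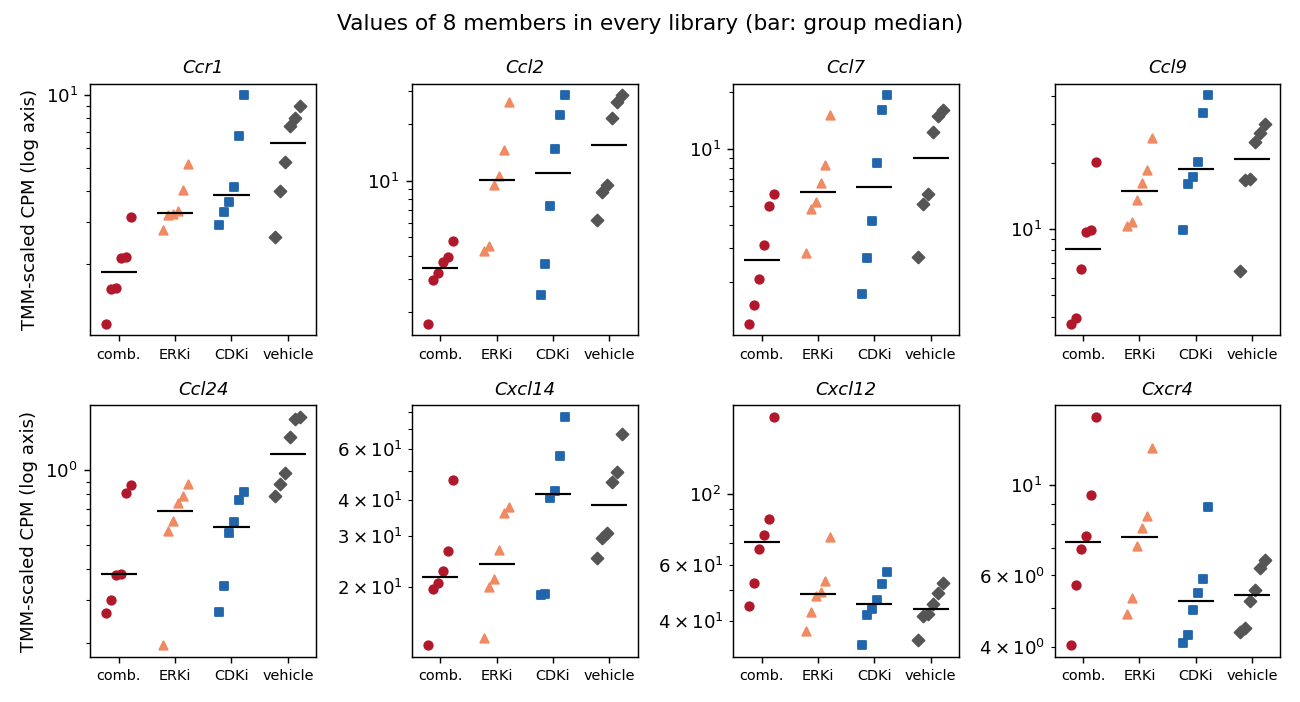
Each panel gives 1 member's TMM-scaled CPM on a log y axis in every library, by group on the x axis (6 libraries each), with a bar at the group median. For Ccl2 the 6 combination libraries sit between 1.74 and 4.81 CPM, under all 6 vehicle libraries, and for Ccr1 they sit between 1.14 and 3.15 CPM with 1 vehicle library inside that range.

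Ccl2 and Ccl7 are neighbours in the genome. In the GRCm38 build (GENCODE vM21), Ccl2 lies on chromosome 11 from 82035571 to 82037453 on the plus strand, and 8.3 kb further on Ccl7 runs from 82045712 to 82047525. Ccl11 starts 10.3 kb beyond Ccl7 at 82057823, and Ccl12, another Ccr2 ligand, 38.9 kb beyond Ccl11 at 82101845. After each group was centred on its mean, the levels of Ccl2 and Ccl7 across the 24 libraries had a Spearman correlation of 0.922, the highest of the 300 pairs of tested members. Ccl7 and Ccl11 had 0.816. Ccl12 had 0.18, 0.715 and 4.2 CPM in combination libraries, against 0.778, 1.46 and 1.89 CPM in vehicle libraries, with a log2 fold change of -0.08 ± 0.60. Its closest partners were Cxcl16 at 0.897 and Cx3cr1 at 0.883. All pairs come from the same 24 libraries and share their depth and cell content.

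**Figure D3:**
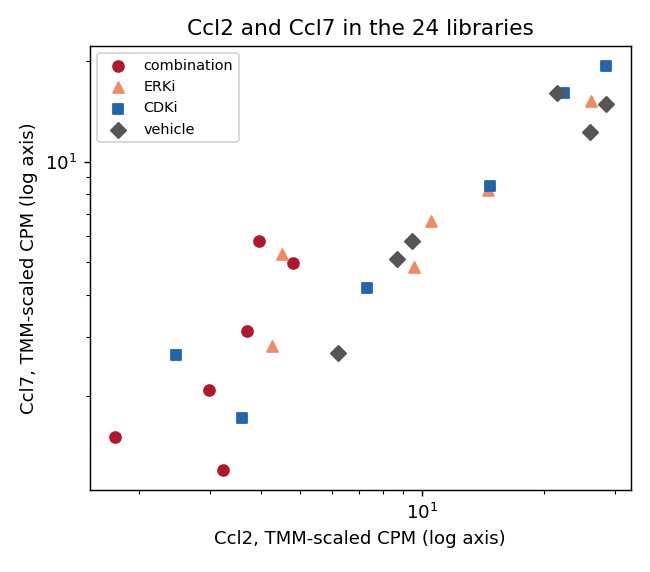
Each point is 1 of the 24 libraries, with Ccl2 on the x axis and Ccl7 on the y axis, both as TMM-scaled CPM on log axes. The points lie along a rising line within and across groups, and the 6 combination libraries gather at its low end, at or under 4.81 CPM of Ccl2 and 5.78 CPM of Ccl7. ERKi replicates 3 and 4 and CDKi replicates 1 and 2 also lie under both of these values.

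Ccl9 and Ccl6, ligands of Ccr1 in the mouse that lie 9.2 kb apart on chromosome 11, had fold changes of opposite sign, but neither passed the threshold. Ccl9 had 3.72, 8.14 and 20.1 CPM in combination libraries, 10.3, 14.8 and 25.8 CPM in ERKi libraries, 9.86, 18.7 and 40.4 CPM in CDKi libraries and 6.48, 20.8 and 29.8 CPM in vehicle libraries. All 6 combination libraries were below the vehicle mean with overlapping ranges, and the log2 fold change was -1.18 ± 0.41 with an adjusted p of 0.236 by edgeR. Ccl6 had 2.66, 4.46 and 22.5 CPM in combination libraries, against 3.04, 5.07 and 7.94 CPM in vehicle libraries. Its combination libraries spread on both sides of the vehicle range, and only replicates 2 and 3 lay above it, at 16.8 and 22.5 CPM. The combination median of Ccl6 was below the vehicle median. Its log2 fold change was 0.78 ± 0.55 with an adjusted p of 0.624 by edgeR.

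Cxcl12 was the ligand with the highest values in the combination relative to its spread. It had 44.3, 70.5 and 175 CPM in combination libraries, 37, 48.5 and 73.2 CPM in ERKi libraries, 33.4, 45 and 57.1 CPM in CDKi libraries and 34.8, 43.7 and 52.5 CPM in vehicle libraries. All 6 combination libraries were above the vehicle mean, the lower ones within the vehicle range and 1, replicate 3, far above the others. The log2 fold change of Cxcl12 was 0.91 ± 0.24 with an adjusted p of 0.123 by edgeR, and DESeq2 gave 0.0224. Without combination replicate 3 it was 0.54 with an adjusted p of 0.210, and without the 6 libraries poor in neuronal transcripts it was 0.47 with an adjusted p of 0.678. Cxcr4, the receptor of Cxcl12, had 4.04, 7.24 and 14.7 CPM in combination libraries, 4.84, 7.46 and 12.3 CPM in ERKi libraries, 4.09, 5.18 and 8.82 CPM in CDKi libraries and 4.35, 5.37 and 6.54 CPM in vehicle libraries. Its upper combination and ERKi libraries exceeded the vehicle range and its lower ones lay within or below it, with a log2 fold change of 0.58 ± 0.27 in the combination (adjusted p = 0.403 by edgeR). After group centring, Cxcl12 and Cxcr4 had a Spearman correlation of -0.563 across the 24 libraries. This was the lowest of all pairs of tested members. Combination replicate 3, the highest in Cxcl12, had 5.69 CPM of Cxcr4. Beside these genes, the 8 endothelial markers had lowest, median and highest sums of 160.5, 225 and 455 CPM in combination libraries and 105, 156 and 203 CPM in vehicle libraries. All 8 were above 0 in log2 fold change with a median of 0.77, and 0 were called by edgeR, with 8 higher at an unadjusted p under 0.05 beside 11.5% of all genes. The part of endothelial content in the Cxcl12 and Cxcr4 values was not tested.

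The promoters of some of the members that stood on either side in the combination are shown. They come from the RefSeq table on GRCm38.p6 and run from 250 bases before to 50 bases after each start, 5′ to 3′. Each CG dinucleotide is in capitals. That source had no promoter for Ccl2, Ccl7 and Ccl24. The Ccr1 promoter is at chr9:123968643-123968942 on the minus strand, that of Ccl9 at chr11:83578587-83578886 on the minus strand and that of Cxcl12 at chr6:117168285-117168584 on the plus strand.
Ccr1: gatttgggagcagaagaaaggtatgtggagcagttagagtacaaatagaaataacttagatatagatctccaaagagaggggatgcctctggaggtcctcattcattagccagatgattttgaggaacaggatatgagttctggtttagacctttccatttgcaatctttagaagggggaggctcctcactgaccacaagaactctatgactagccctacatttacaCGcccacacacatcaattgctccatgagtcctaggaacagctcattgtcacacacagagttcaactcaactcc
Ccl9: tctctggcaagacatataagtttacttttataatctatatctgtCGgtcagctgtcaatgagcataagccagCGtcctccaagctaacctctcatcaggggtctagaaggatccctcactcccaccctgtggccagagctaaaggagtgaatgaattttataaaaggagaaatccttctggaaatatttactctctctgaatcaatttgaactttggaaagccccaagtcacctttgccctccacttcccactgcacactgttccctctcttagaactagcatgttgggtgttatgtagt
Cxcl12: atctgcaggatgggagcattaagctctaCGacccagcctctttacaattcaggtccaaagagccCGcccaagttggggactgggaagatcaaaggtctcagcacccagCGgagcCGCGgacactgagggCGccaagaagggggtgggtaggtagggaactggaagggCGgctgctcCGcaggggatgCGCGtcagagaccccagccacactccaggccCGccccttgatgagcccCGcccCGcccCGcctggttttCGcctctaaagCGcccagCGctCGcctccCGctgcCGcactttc
Ccr1 had 1 CG and 44.0% G and C, Ccl9 had 2 CG and 43.7%, and Cxcl12 had 20 CG and 64.7%. Of the members not printed, Cxcl14, lower in the combination, had 22 CG and 62.7%. Cxcr4, higher in the combination, had 20 CG and 59.3%. The printed promoters therefore do not stand for all lower or higher members. At most 1 CG was found in 14.1% of all 32851 promoters in the table and 20 or more in 26.5%. Over the 48 promoters of the 41 members in that table the median was 4 CG, against 7 for all promoters. By role it was 5 CG over 33 ligand promoters and 3 CG over 15 receptor promoters. These counts describe the sequences and carry no test.

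Ccl24, another Ccr3 ligand made by macrophages and stroma, was low in all 3 drug groups. It had 0.266, 0.38 and 0.875 CPM in combination libraries, 0.196, 0.682 and 0.881 CPM in ERKi libraries, 0.268, 0.588 and 0.818 CPM in CDKi libraries and 0.79, 1.17 and 1.65 CPM in vehicle libraries. Every drug-treated library was below the vehicle mean, the ranges overlapped at their ends, and the counts were small, with 298 reads over the 24 libraries. Its log2 fold changes against vehicle were -1.25 ± 0.37 in the combination (adjusted p = 0.153), -0.89 ± 0.36 with ERKi (adjusted p = 0.672) and -1.08 ± 0.37 with CDKi (adjusted p = 1.0), all by edgeR. These 3 contrasts share their vehicle libraries. Ccl11, by far the most abundant ligand, had 58.5, 150.1 and 189 CPM in combination libraries, 66.3, 135 and 187 CPM in ERKi libraries, 112, 145 and 274 CPM in CDKi libraries and 159, 199 and 309.5 CPM in vehicle libraries. All 6 combination and all 6 ERKi libraries lay below the vehicle mean, with overlapping ranges. Its log2 fold changes against vehicle were -0.58 ± 0.29 in the combination (adjusted p = 0.461), -0.63 ± 0.29 with ERKi (adjusted p = 0.672) and -0.24 ± 0.29 with CDKi (adjusted p = 1.0) by edgeR. Cxcl14 had 12.5, 21.6 and 46.5 CPM in combination libraries, 13.3, 24 and 37.7 CPM in ERKi libraries, 18.7, 41.7 and 77.2 CPM in CDKi libraries and 25.2, 38.4 and 67.3 CPM in vehicle libraries. Its medians were low in the combination and ERKi groups, and the log2 fold change in the combination was -0.75 ± 0.36 (adjusted p = 0.426 by edgeR).

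After group centring, the 3 genes outside the family most like Ccl11 over the 24 libraries were Tbx18, Ebf2 and Lum, with Spearman correlations of 0.898, 0.889 and 0.863. Lum encodes lumican, a small proteoglycan, and is 1 of the 8 nerve fibroblast markers. The 3 most like Cx3cr1 were Slc15a3, Hvcn1 and Rap2b, at 0.924, 0.917 and 0.914. Among the members, Ccr1 and Cx3cr1 had 0.852, and Ccr1 and Ccr2 had 0.819. Ccl11 had 0.788 with Ccl2, 0.706 with Cxcl1, 0.651 with Ccr2, 0.626 with Cx3cr1 and 0.609 with Ccr1.

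**Figure D4:**
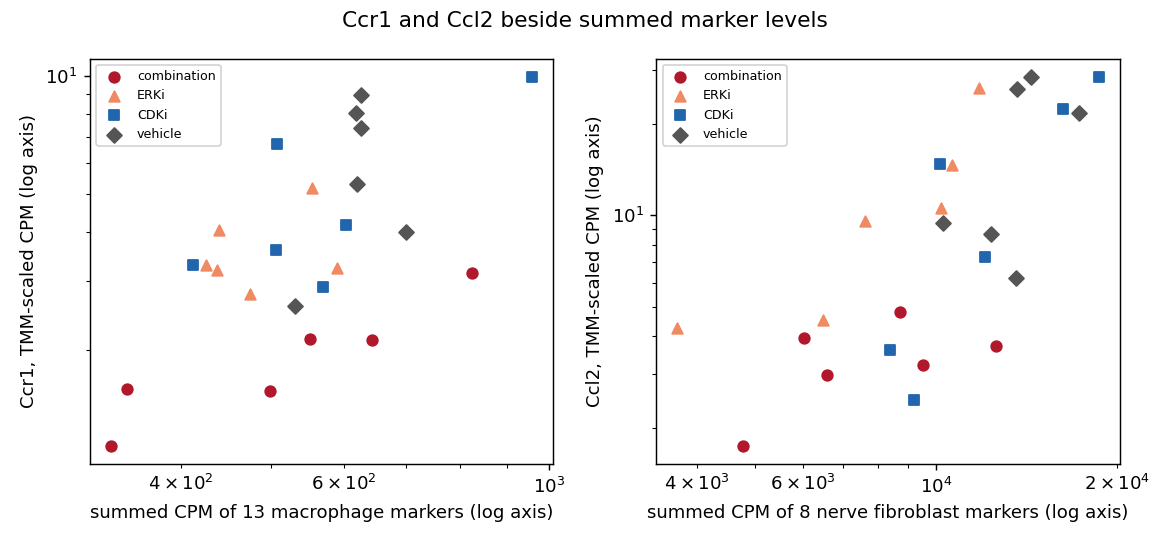
The left panel sets Ccr1 (y axis) against the summed CPM of 13 macrophage markers (x axis) and the right panel sets Ccl2 against the summed CPM of 8 nerve fibroblast markers, for the 24 libraries on log axes. The combination libraries lie at or under 3.15 CPM of Ccr1 and 4.81 CPM of Ccl2. Of these 6 libraries, 2 lie within the vehicle range of macrophage sums and 1 within that of fibroblast sums, and some single-drug libraries with low fibroblast sums have Ccl2 as low.

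The interferon-induced ligands of Cxcr3, which draw activated T cells, gave no call. Cxcl10 had 3.62, 6.83 and 17.5 CPM in combination libraries, 2.5, 3.46 and 8.18 CPM in ERKi libraries, 1.88, 4.34 and 7.64 CPM in CDKi libraries and 2.49, 5.9 and 9.29 CPM in vehicle libraries. The groups overlapped throughout, with the highest library in the combination. Cxcl11 had 3.32, 3.85 and 5.84 CPM in combination libraries, against 3.76, 4.28 and 4.89 CPM in vehicle libraries, and a log2 fold change of 0.01 ± 0.22. The GENCODE annotation classes Cxcl11 as a polymorphic pseudogene, so whether its reads give a working ligand in these mice is not known. Cxcl9 was sparse, with 161 reads in all and 0 reads in at least 1 library of every group. It had 0, 0.174 and 0.612 CPM in combination libraries, 0, 0.161 and 0.563 CPM in ERKi libraries, 0, 0.505 and 2.55 CPM in CDKi libraries and 0, 0.522 and 0.977 CPM in vehicle libraries.

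The remaining tested ligands gave no call in any contrast by edgeR. Cxcl13, the B cell attractant that acts on Cxcr5, had 4.05, 5.2 and 13.9 CPM in combination libraries, 3.53, 6.19 and 11.4 CPM in ERKi libraries, 4.27, 5.41 and 25.8 CPM in CDKi libraries and 2.7, 6.11 and 20.4 CPM in vehicle libraries. Fractalkine, Cx3cl1, had 8.78, 10.7 and 17.9 CPM in combination libraries, 5.38, 11.8 and 15 CPM in ERKi libraries, 9.52, 11.5 and 18.9 CPM in CDKi libraries and 9.11, 10.8 and 20.5 CPM in vehicle libraries. For Cxcl13 and Cx3cl1 all 4 groups overlapped and the medians were close. Cxcl16, a membrane-bound ligand of Cxcr6, had 5.91, 8.3 and 22.6 CPM in combination libraries, 6.73, 8.58 and 14.2 CPM in ERKi libraries, 4.51, 6.64 and 12.6 CPM in CDKi libraries and 6.09, 9.53 and 11.5 CPM in vehicle libraries, and its combination libraries included the highest of all. Cxcl1, which draws neutrophils through Cxcr2, had 0.661, 1.13 and 2.6 CPM in combination libraries, 1.63, 2.15 and 4.37 CPM in ERKi libraries, 1.34, 2.15 and 8.86 CPM in CDKi libraries and 0.83, 2.65 and 4.11 CPM in vehicle libraries. The log2 fold changes in the combination against vehicle were -0.73 ± 0.49 for Cxcl1, -0.43 ± 0.52 for Cxcl13, 0.17 ± 0.47 for Ccl22 and 0.18 ± 0.29 for Ccl25. Ccl22 is a ligand of Ccr4 and Ccl25 a ligand of Ccr9.

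The single drugs gave no call among the members. In ERKi against vehicle 0 of 25 members and 0% of all genes were called by edgeR, and DESeq2 and limma-voom called 0 members. At an unadjusted p under 0.05 there were 3 of 25 members, Ccl24, Ccr1 and Ccl11, all lower, beside 6.34% of all genes. On the log2 scale Ccr1 was at -0.73 ± 0.32 (adjusted p = 0.672 by edgeR), and all 6 ERKi libraries lay below the vehicle mean. Of the members with values above 0, Cxcr4 had the smallest p, at 0.50 ± 0.27 (adjusted p = 0.672), followed by Cxcl12 at 0.19 ± 0.24. In CDKi against vehicle 0 of 25 members and 0% of all genes were called by edgeR, and DESeq2 and limma-voom called 0 members. At an unadjusted p under 0.05 the count was 1 of 25, Ccl24, beside 3.12% of all genes. Ccr1 was at -0.24 ± 0.32 and Ccl2 at -0.34 ± 0.54 in this contrast, and Cxcl12 at 0.05 ± 0.24. ERKi against CDKi gave 0 calls of 25 and 0% of all genes by edgeR, 0 members by DESeq2 and limma-voom, and 0 of 25 at an unadjusted p under 0.05 beside 4.54% of all genes. The smallest p of a member there was that of Cxcl14, at -0.72 ± 0.35 on the log2 scale (adjusted p = 0.77 by edgeR).

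**Figure D5:**
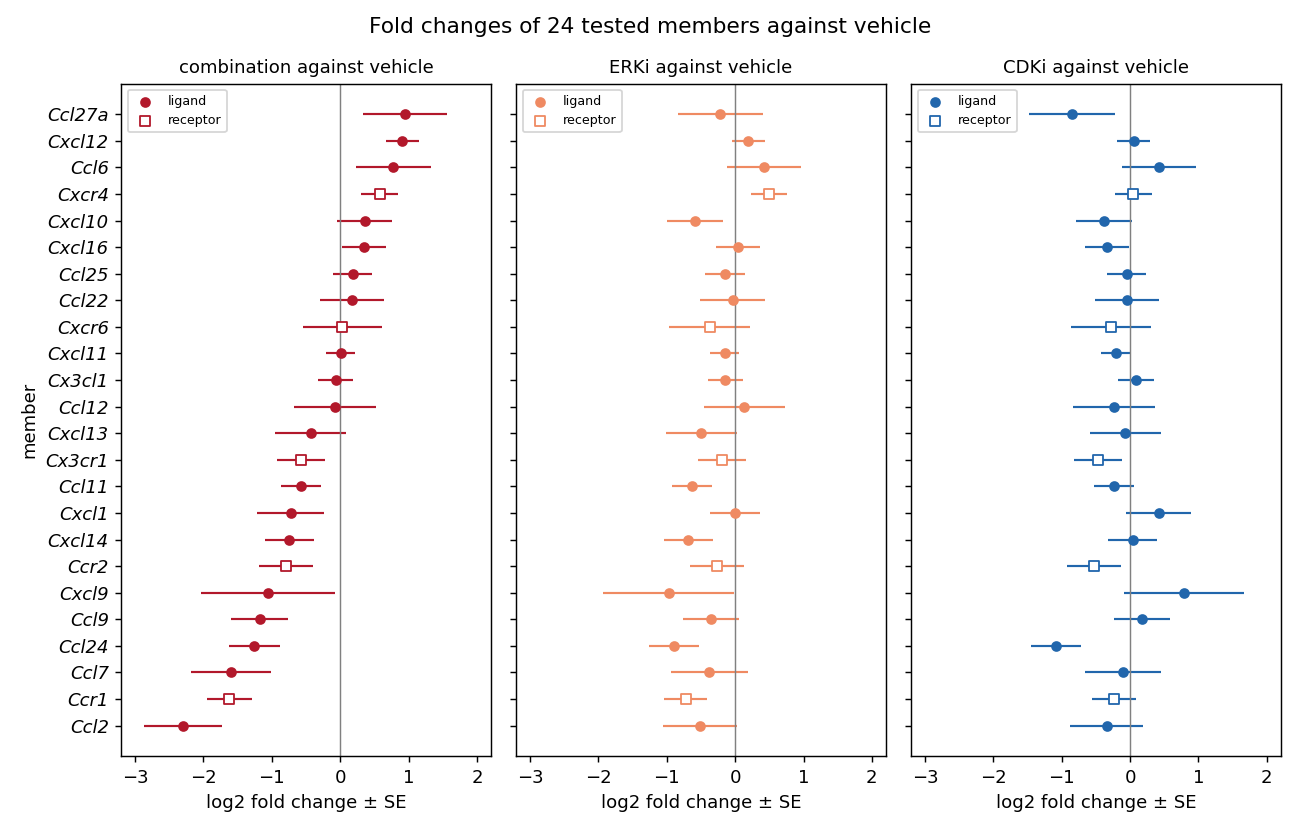
Log2 fold changes of 24 of the 25 tested members against vehicle (x axis, with SE bars) in the combination, ERKi and CDKi, in the order of the combination values on the y axis; circles are ligands and squares are receptors. In the combination Ccl2 at -2.30 and Ccr1 at -1.62 lie farthest to the left, and the single-drug panels hold 0 called members. The 3 panels share the 6 vehicle libraries.

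Set directly against each single drug, the combination gave no call among the members by edgeR. In the combination against ERKi 0 of 25 members and 0% of all genes were called, DESeq2 and limma-voom called 0 members, and 5 of 25 members had an unadjusted p under 0.05 beside 9.34% of all genes. These were Ccl2 at -1.78 ± 0.56, Cxcl12 at 0.71 ± 0.24, Ccr1 at -0.90 ± 0.33, Cxcl10 at 0.94 ± 0.41 and Ccl7 at -1.22 ± 0.58 on the log2 scale. In the combination against CDKi 0 of 25 members and 0.0065% of all genes were called, limma-voom called 0 members and DESeq2 called 2, Ccl2 and Ccr1. At an unadjusted p under 0.05 there were 9 of 25 members beside 7.07% of all genes. Ccr1 was at -1.39 ± 0.33 (adjusted p = 0.239), Ccl2 at -1.96 ± 0.56 (adjusted p = 0.384) and Cxcl12 at 0.85 ± 0.24 (adjusted p = 0.346 by edgeR). Ccl9 at -1.35 ± 0.41, Ccl7 at -1.50 ± 0.58, Cxcl1 at -1.14 ± 0.48 and Cxcl14 at -0.78 ± 0.36 were below 0, and Ccl27a at 1.79 ± 0.63 and Cxcl16 at 0.68 ± 0.32 above it. Ccl27a, a ligand of Ccr10, had 0.70, 4.15 and 5.95 CPM in combination libraries, 0.40, 0.84 and 4.05 CPM in ERKi libraries, 0.513, 0.832 and 2.05 CPM in CDKi libraries and 0.623, 1.9 and 3.25 CPM in vehicle libraries. Its combination libraries ranged from the low levels of the other groups to above them, and its locus is present in near-identical copies in the mouse, so that its counts are uncertain.

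Whether the combination differed from the sum of the single-drug effects was tested as an interaction. It gave 0 calls of 25 and 0% of all genes by edgeR, 0 members by DESeq2 and limma-voom, and 2 of 25 at an unadjusted p under 0.05 beside 3.69% of all genes. These were Cxcl10 at 1.33 ± 0.58 and Ccl27a at 2.01 ± 0.88 on the log2 scale. Ccl2 was at -1.44 ± 0.77 (adjusted p = 0.988), Ccl9 at -1.0 ± 0.58 and Ccr1 at -0.66 ± 0.45 (adjusted p = 0.988 by edgeR), so that a departure from additivity was not shown for them. In the test for any difference among the 4 groups 0 of 25 members and 0% of all genes were called by edgeR, limma-voom called 0 members and DESeq2 called 3, Ccl2, Ccr1 and Cxcl12. At an unadjusted p under 0.05 there were 5 of 25 members, Ccr1, Cxcl12, Ccl2, Ccl24 and Ccl9, beside 8.14% of all genes.

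The other 32 members, 20 ligands and 12 receptors, had too few reads to pass the filter on low counts. None reached more than 28 reads in 1 library or 156 over all 24. Both of these values belonged to Ccl8, a CC ligand of the Ccl2 gene cluster, and Ccl3, a macrophage ligand of Ccr1, had 139 reads. The receptors of several abundant ligands were among them. Ccr3, the receptor of Ccl11 and Ccl24, had 66 reads in 11 of the 24 libraries, and Cxcr5, the receptor of Cxcl13, had 15 reads in 7 libraries. Cxcr3, the receptor of Cxcl9, Cxcl10 and Cxcl11, had 100 reads in 23 libraries, and Cxcr2, the neutrophil receptor of Cxcl1, had 34 reads in 13 libraries. Ccr6 had 141 reads, Ccr10 72, Ccr7 22 and Ccr4 18. With no count filter edgeR called 0 of the members in each of the 8 tests. Ccl3, named after its values were seen, had 0.126, 0.352 and 1.14 CPM in combination libraries, 0, 0.151 and 0.881 CPM in ERKi libraries, 0.0537, 0.551 and 0.682 CPM in CDKi libraries and 0, 0.148 and 0.275 CPM in vehicle libraries. Its combination and CDKi medians were above the vehicle median, and the ranges overlapped. Ccl21a, Ccl21b, Ccl21c and Ccl27b had 0 reads in all libraries, and Ccl19 had 3, at loci with near-identical copies where reads may not be assigned to 1 gene, so that their absence is uncertain.

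Genes that work with the family gave no calls in the combination. The share of all genes at an unadjusted p under 0.05, to be read beside each count, was 11.5% in the combination, 6.34% with ERKi and 3.12% with CDKi. Of 31 tested genes of receptor signalling (G protein subunits, kinases, arrestins and Rac activators), edgeR called 0 in either direction, 0 had an unadjusted p under 0.05, and the median log2 fold change was 0.01. Those with the smallest p were the receptor kinase Grk5 at -0.28 ± 0.15 and the Rac activator Tiam1 at -0.43 ± 0.23. Of 17 tested genes of leukocyte adhesion edgeR called 0, with 3 higher and 2 lower at an unadjusted p under 0.05 and a median of -0.14. Esam, a junction protein of endothelial cells, was at 1.07 ± 0.25 (adjusted p = 0.077) and Cd34 at -1.14 ± 0.38 (adjusted p = 0.202 by edgeR). Of 14 tested inducers of chemokine genes edgeR called 0, with 0 higher and 2 lower at an unadjusted p under 0.05. The cytokine Il33 was at -0.84 ± 0.30 (adjusted p = 0.238 by edgeR). Of 7 tested atypical receptors and other chemokines edgeR called 0, with 0 higher and 1 lower at an unadjusted p under 0.05. Pf4, a chemokine of platelets and macrophages, was at -1.01 ± 0.37 (adjusted p = 0.254) and the chemerin receptor Cmklr1 at -0.43 ± 0.22 (adjusted p = 0.478 by edgeR). ERKi against vehicle and CDKi against vehicle also gave 0 calls in each of the 4 lists by edgeR. At an unadjusted p under 0.05, ERKi had 3 signalling genes higher and 1 lower and 2 inducers lower, CDKi had 1 inducer lower, and the other lists had 0.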

How the data were processed

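The deposited table holds raw read counts per gene symbol for 24 libraries (4 treatments, 6 libraries each). The submitters' processing notes name STAR, FastQC and DESeq2 and the mm10 build. Neither tool versions nor the counting program or strand rule is given in the sources used here. Per the labels' protocols, libraries were made from total RNA with ribosomal RNA removal, while the labels' molecule field names polyA RNA.

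From the counts, genes passing edgeR's filter (minimum count 10, minimum total 15) were kept, 15385 in all, scaled by TMM and fitted with the quasi-likelihood test (edgeR 4.0.16, robust, R 4.3.3) over all 24 libraries with 1 mean per group. The common dispersion came to 0.129. There were 7 contrasts and a test for any difference, each adjusted by Benjamini-Hochberg over all genes tested at 0.05. The steps were tested on simulated data. DESeq2 1.42.0 and limma-voom 3.58.1 were alternatives, and limma-voom was run with sample weights throughout. CPM per kilobase used GENCODE vM21 exon lengths, with 54 of 57 members matched by symbol. Members described in full were those called, the 10 highest ligands and 6 highest receptors, and the 2 with the smallest p in each direction of each contrast. Further members were named after their values were seen. The members and lists were chosen with earlier results of these data known. Values of some genes are not reported here.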

Additional observations from a re-analysis of the deposited data

Results flagged for a closer look

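In 4 of the 100 sets of 6 libraries examined (25 members in 4 groups, on log2 CPM), 1 library stood far from the other 5, and chance gives about 1 in 20, or 5. The value given for each is the gap to the nearest library as a share of the group's range. For Ccl24 the library of ERKi replicate 4 was the lowest, at 0.196 CPM beside 0.570 to 0.881 CPM (0.678). For Ccr2 vehicle replicate 4 was the lowest, at 20.2 CPM beside 38.1 to 54.1 CPM (0.643). For Cx3cr1 ERKi replicate 3 was the highest, at 73.0 CPM beside 46.1 to 53.0 CPM (0.697). For Cxcl11 ERKi replicate 3 was the lowest, at 1.81 CPM beside 3.98 to 4.90 CPM (0.789). ERKi replicate 3 is 1 of the 3 libraries with liver transcripts.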

How the results depend on the processing

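Against 1 member called in the combination against vehicle, DESeq2 called 3 (Ccl2, Ccr1 and Cxcl12), and 2 were called without the 3 libraries holding liver transcripts (Ccl2 and Ccr1) and with the macrophage list as a covariate (Ccr1 and Cxcl12). The count was 0 with limma-voom, RLE scaling, upper quartile scaling, no count filter, only the groups compared, CPM above 1 in 6 libraries, without the 6 neuron-poor libraries, without the deepest and shallowest libraries, and with the nerve fibroblast list as a covariate. It stayed at 1 with the title number series as a term and the neuron list as a covariate. Leaving out 1 library gave 0 to 1. The title number series is the first digit of each library's numeric title. The labels do not say what it stands for, and it was not spread evenly over the groups. DESeq2 also called 2 members in the combination against CDKi and 3 in the test for any difference, where edgeR called 0. The cause was not tested. Of 765 alternative values of 28 named member results, 738 kept direction and side of the threshold, 18 lost the call, 6 gained one and 3 changed sign. Cxcl1 in CDKi against vehicle was -0.18 without the liver libraries and -0.15 to 0.63 leaving out 1 library, the lowest without CDKi replicate 3. Cxcl9 in CDKi against vehicle was -0.17 to 1.17 leaving out 1 library, the lowest without CDKi replicate 6. Alternatives that leave out the neuron-poor, liver-positive or extreme-depth libraries, or add a marker list, were chosen after seeing the data. No paired analysis was possible because replicate numbers only name the libraries. Low depth limits the 32 members that did not pass the count filter.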
